A study of Mus musculus with 6 samples.

Results

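Chemokines are small secreted or membrane-tethered proteins that attract leukocytes, and chemokine receptors are the membrane proteins that read them. The genes of both were examined in kidneys of wild-type (WT) and Trpm2-/- mice injured with cisplatin. Members were the protein-coding rows of the count table whose symbol is a stem of the Ccl, Cxcl, Cx3cl, Xcl, Ccr, Cxcr, Cx3cr, Xcr or Ackr series followed by a number and at most 1 letter. The rule found 66 rows of 54532, which carry 60 gene symbols: 44 rows of ligands and 22 of receptors. Of these rows, 59 lie on assembled chromosomes and 7 are copies on unplaced scaffolds. Cxcl11, a ligand of CXCR3, was left out by the rule because its row has the biotype polymorphic pseudogene. RNA of kidney tissue was sequenced from 3 WT mice and 3 Trpm2-/- mice on the C57BL/6J background, aged 6 to 8 weeks in the sample labels. Every mouse had received 18 mg/kg cisplatin intraperitoneally 72 h earlier, so both groups were injured and no group without cisplatin was analysed here. Per the methods the mice were male, and the Trpm2-/- allele is a whole-body deletion of exons that encode membrane-spanning segments of TRPM2, a calcium-permeable channel opened by oxidative stress. The libraries are numbered 1, 2 and 3 in WT and 1, 2 and 4 in Trpm2-/- mice, and p-values measure the spread between these samples.

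Chemokine receptors couple mostly to inhibitory G proteins and steer the cell that carries them along a ligand gradient. CXC ligands with an ELR motif act on CXCR2 of neutrophils, CC ligands such as CCL2 act on monocytes, and CXCL12, made by stromal and vascular cells, acts on CXCR4. In the injured kidney, tubular cells themselves make several of these ligands through NF-kappaB, while atypical receptors such as ACKR3 take up ligand without coupling to G proteins.

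Total counts on genes were between 14053307 and 17150089 per library. On these totals 3 counts, the floor that a count of 0 allows, stood for 0.175 to 0.213 CPM (counts scaled to library size). CPM values below use normalized library sizes, on which 3 counts of Trpm2-/- replicate 2 were 0.205 CPM and not 0.213. The floor covers counting error only. Trpm2 counts were 5, 5 and 27 in WT and 10, 16 and 20 in Trpm2-/- kidneys. The count runs over the whole gene, exons outside the deletion included, so it does not check the genotype. The mitochondrial genome took 4.43% to 4.72% of counts in WT and 7.91% to 11% in Trpm2-/- libraries. The same 2 and 1 member calls given next came back when its genes were left out. All 7 proximal tubule markers tested fell in Trpm2-/- kidneys, their summed level being 2388 to 3233 CPM in WT and 627 to 1007 CPM in Trpm2-/- libraries. Of 5 tubular injury markers, Krt20 (log2 fold change 0.79, Benjamini-Hochberg adjusted p = 0.0189, quasi-likelihood test of edgeR) and Sox9 (1.16, adjusted p = 0.0115) rose. Replicate 4 of the Trpm2-/- group held more podocyte marker RNA than any other library (353 CPM against 90 to 130 CPM), and the 3 called members are given with and without it. The part of these shifts in the differences between genotypes was not tested.

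Among chemokine genes, the neutrophil-attracting ligands Cxcl2 and Cxcl3 rose in Trpm2-/- kidneys and the stromal ligand Cxcl12 fell. No receptor passed the test. Of the 66 rows, 27 had enough counts to be tested, 19 ligands and 8 receptors. At an adjusted p under 0.05, 2 members were higher, where 4.74% of the 15816 genes tested were higher, and 1 was lower, where 7.28% of genes were lower. The same 3 genes passed the threshold of the methods (an absolute log2 fold change above 1 and an unadjusted p under 0.05), which 3.50% of genes passed upwards and 4.10% downwards. The Trpm2-/- libraries lay wholly above the WT libraries for 4 members (Cxcl2, Cxcl3, Ccl2 and Ackr4), against 16.7% of all genes tested, and wholly below for 2 (Cxcl12 and Ccl5), against 16.8%. The median log2 fold change over the 27 members was 0.33, with 0.16 for ligands and 0.48 for receptors, and it was 0.02 over all genes tested. Of the 27 values, 17 were above 0. Read against these shares of all genes, the number of members called or not overlapping was not in itself a result about the family, and the account that follows is one of single genes. In RNA of whole tissue, fewer cells of a type and less RNA per cell cannot be told apart.

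**Figure D1:**
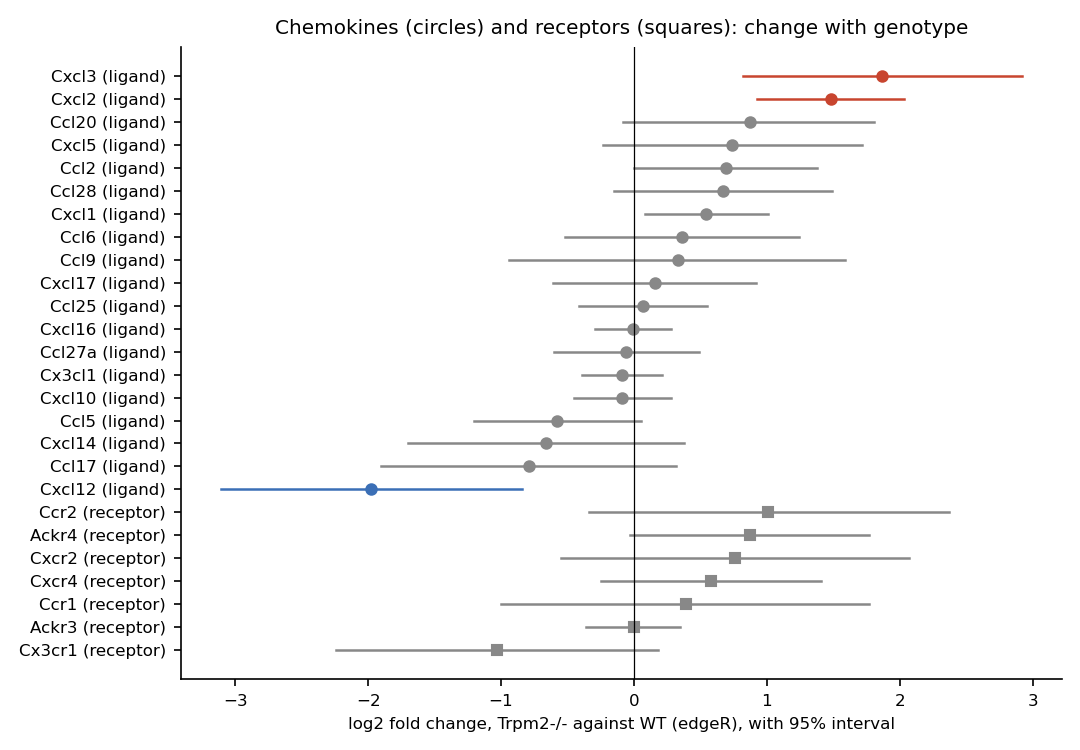
log2 fold change of 26 tested members in Trpm2-/- against WT kidneys (horizontal axis, edgeR), with the 95% interval as a line; circles are ligands and squares receptors, red marks genes called higher, blue a gene called lower and grey the rest. Cxcl3 (1.87) and Cxcl2 (1.48) lie to the right of 0 and Cxcl12 (-1.98) to the left, while the intervals of the 7 receptors shown include 0.

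The sequences before the start sites of the 3 called ligands and of Cxcl1 are shown because Cxcl1, Cxcl2 and Cxcl3, which sit in 1 cluster, share a stretch there. Each run is the 250 bases before the RefSeq start on the plus strand of GRCm38.p6, 5′ to 3′, and capitals mark matches to the NF-kappaB (kappaB) consensus. Cxcl3 is at chr5:90785851-90786100, Cxcl1 at chr5:90890995-90891244, Cxcl2 at chr5:90903649-90903898 and Cxcl12 at chr6:117168285-117168534.
Cxcl3: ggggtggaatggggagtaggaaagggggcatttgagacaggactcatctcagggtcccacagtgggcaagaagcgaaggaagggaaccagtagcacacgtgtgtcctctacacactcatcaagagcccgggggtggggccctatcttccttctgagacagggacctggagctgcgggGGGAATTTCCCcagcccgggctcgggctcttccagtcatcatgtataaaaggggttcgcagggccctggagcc
Cxcl1: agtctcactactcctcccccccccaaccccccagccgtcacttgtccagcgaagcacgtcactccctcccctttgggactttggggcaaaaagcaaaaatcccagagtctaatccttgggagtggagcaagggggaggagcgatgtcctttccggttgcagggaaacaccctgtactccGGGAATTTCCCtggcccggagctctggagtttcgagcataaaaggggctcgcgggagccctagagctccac
Cxcl2: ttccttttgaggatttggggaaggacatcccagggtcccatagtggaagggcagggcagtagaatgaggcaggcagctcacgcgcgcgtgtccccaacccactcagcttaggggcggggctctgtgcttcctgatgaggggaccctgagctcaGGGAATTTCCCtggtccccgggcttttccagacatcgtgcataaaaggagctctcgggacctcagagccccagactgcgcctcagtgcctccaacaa
Cxcl12: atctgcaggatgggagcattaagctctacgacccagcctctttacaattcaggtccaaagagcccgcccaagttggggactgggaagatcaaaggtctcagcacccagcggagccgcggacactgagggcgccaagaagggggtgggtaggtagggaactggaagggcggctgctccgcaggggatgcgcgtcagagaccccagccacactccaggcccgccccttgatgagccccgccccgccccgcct
The run in capitals is the same in Cxcl3, Cxcl1 and Cxcl2. It begins 73 bases before the RefSeq start in Cxcl3, 71 in Cxcl1 and 97 in Cxcl2. The window of Cxcl2 runs past the gene start used for the counts (90903871), so its distance depends on the start chosen. The window of Cxcl12 held no match, nor did that of Cxcl15, which lies between Cxcl3 and Cxcl1 (not shown). No RefSeq promoter was found for Cxcl5, the other ELR-motif ligand of the cluster. Of 52 promoters found for 45 members, 12 (23.1%) held a match on either strand, against 3137 of 32851 promoters of the same length in all genes (9.55%). Among promoters of tested members the count was 7 of 24 (29.2%), and it took in those of Cxcl10, Ccl20, Ccr1 and Ccl9, none of which passed the test. The letters TATAAA stood in 26.9% of member promoters and 12.4% of all, and TGANTCA, an AP-1 element, in 11.5% and 6.75%. A match is a description of the letters and not a site of binding.

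The ELR-motif CXC ligands are neighbours on chromosome 5, in the order Cxcl5 (90759360 to 90761624 in GRCm38), Cxcl3 (90786103 to 90789600), Cxcl15, Cxcl1 (90891241 to 90893115) and Cxcl2 (90903871 to 90905938). They were not equally abundant. Cxcl1, the ligand also called KC, had the highest FPKM (fragments per kilobase of gene and unit of library size, a length-scaled level) of all members, 35.3 ± 8.56 in WT and 51.8 ± 11.7 in Trpm2-/- kidneys (SD, n = 3). Cxcl2, also called MIP-2, followed at 4.31 ± 0.0772 and 12.1 ± 4.09 FPKM. Cxcl5 and Cxcl3 stayed under 1 FPKM in both groups' means, and Cxcl15 had no counts.

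The counts of Cxcl2 were 168, 156 and 166 in WT and 473, 556 and 296 in Trpm2-/- kidneys. The WT values lay close together and every Trpm2-/- value lay above them, with replicate 4 the lowest of its group. The mean went from 10.2 ± 0.169 to 28.4 ± 9.77 CPM (SD, n = 3), and the log2 fold change was 1.48 (standard error 0.246, 95% interval 0.93 to 2.03, Benjamini-Hochberg adjusted p = 0.00609, quasi-likelihood test of edgeR). Cxcl2 kept an adjusted p under 0.05 in each of the 19 alternative fits, with log2 fold changes from 1.22 without Trpm2-/- replicate 2 to 1.72 without replicate 4 among the fits that left out 1 library.

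Cxcl3, a close relative of Cxcl2 that also acts on CXCR2, had 15, 11 and 8 counts in WT and 56, 20 and 48 in Trpm2-/- libraries. The groups did not overlap, though Trpm2-/- replicate 2 was only a little above the WT libraries. The mean rose from 0.708 ± 0.217 to 2.59 ± 1.09 CPM (SD, n = 3), with a log2 fold change of 1.87 (standard error 0.469, 95% interval 0.82 to 2.92, adjusted p = 0.0323 from the same test). The call was lost without WT replicate 1, 2 or 3 or Trpm2-/- replicate 1 or 4 (log2 fold changes from 1.61 to 2.10, adjusted p from 0.0534 to 0.145), and was kept without Trpm2-/- replicate 2 (2.17, adjusted p = 0.0178). Cxcl3 and Cxcl2 share 101 windows of 75 bases, 2.78% of those of Cxcl3 and 4.57% of those of Cxcl2. If Cxcl2 counts were spread evenly, the shared windows would hold 7.68, 7.13 and 7.59 of them in WT. In Trpm2-/- libraries they would hold 21.6, 25.4 and 13.5. These values are not small beside the counts of Cxcl3, so its level and the size of its rise are uncertain. The part of Cxcl2 reads in them was not tested.

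Cxcl1 had 1028, 1505 and 1090 counts in WT and 1641, 2040 and 1460 in Trpm2-/- libraries. The Trpm2-/- libraries were the higher on average, but the lowest of them lay within the WT range. The log2 fold change was 0.54 (standard error 0.208, 95% interval 0.08 to 1.01), with an unadjusted p of 0.0272 that did not pass the adjustment (adjusted p = 0.122, edgeR). Without Trpm2-/- replicate 2, the highest library, it was 0.34 (adjusted p = 0.282). Within single libraries Cxcl2 made 16.3, 10.4 and 15.2 counts per 100 of Cxcl1 in WT and 28.8, 27.3 and 20.3 in Trpm2-/- kidneys. The ratio was chosen after the values were seen and was not tested. Cxcl5, made by epithelium in many tissues, had 13, 15 and 27 counts in WT and 38, 18 and 35 in Trpm2-/- libraries, which overlapped (0.74, 95% interval -0.23 to 1.72, adjusted p = 0.301, and 1.11 without WT replicate 3).

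**Figure D2:**
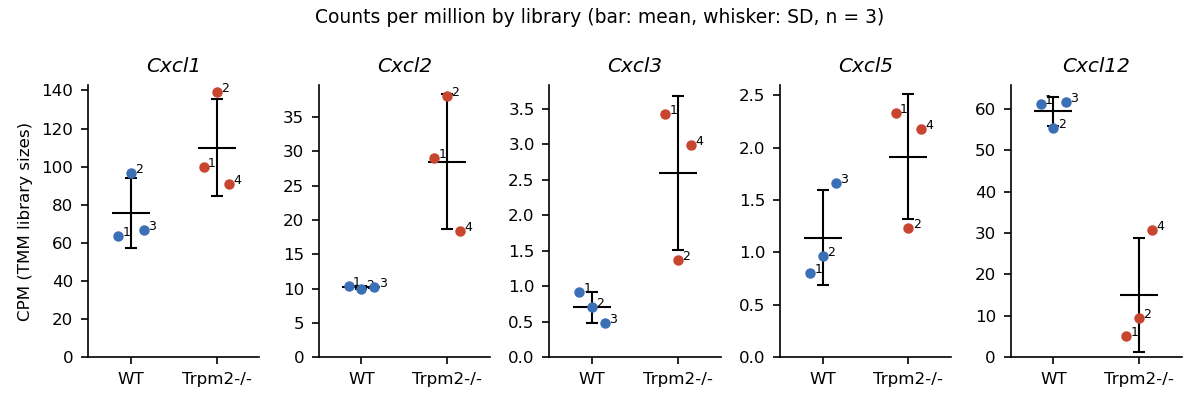
CPM (vertical axes, each starting at 0) of Cxcl1, Cxcl2, Cxcl3, Cxcl5 and Cxcl12 in each library; points are libraries with their replicate numbers, bars the mean and whiskers the SD of 3 libraries. WT points of Cxcl2 sit together at 10 to 10.4 CPM under Trpm2-/- points at 18.4 to 38 CPM, and Cxcl12 shows the opposite order with Trpm2-/- replicate 4 (30.7 CPM) apart from replicates 1 and 2.

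The receptors of these ligands were scarce. Cxcr2, carried by neutrophils, had 4, 16 and 5 counts in WT and 16, 12 and 14 in Trpm2-/- libraries. The Trpm2-/- values were the more even, and WT replicate 2 reached as high as the highest of them (log2 fold change 0.76, 95% interval -0.55 to 2.07, adjusted p = 0.439). Leaving out WT replicates 1, 2 and 3 in turn gave 0.41, 1.66 and 0.48. Cxcr1 had 1 count in each of WT replicates 2 and 3 and none elsewhere. The summed level of 10 neutrophil markers overlapped between groups, at 3.95 to 15.5 CPM in WT and 9.08 to 14.1 CPM in Trpm2-/- libraries, and none of the 5 that could be tested passed. S100a8, which encodes a calprotectin subunit, had 0.617 to 4.11 CPM in WT and 1.84 to 2.88 CPM in Trpm2-/- libraries. Ly6g, a defining neutrophil marker, was at most 0.205 CPM in any library. Csf3r, with 0.308, 1.41 and 1.17 CPM in WT and 3.18, 2.18 and 4.79 CPM in Trpm2-/- libraries, and Camp, at 0 in WT and at most 0.187 CPM in Trpm2-/- libraries, lay wholly above WT, and the other 8 overlapped. The part of neutrophils in the levels of Cxcl2 and Cxcl3 was not tested.

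A list of 43 genes held cytokines, receptors and transcription factors known to switch chemokine genes on, with feedback inhibitors of that signalling and adhesion molecules induced along with chemokines, and 32 were tested. Of these, 9 rose at an adjusted p under 0.05, where 4.74% of all genes did, and none fell, where 7.28% of all genes did. The median log2 fold change of the 32 was 0.28, and 24 were above 0. The list was chosen with earlier results of these data known, so its comparison with all genes is a description and not a test. The rise took in subunits and inhibitors of NF-kappaB. Nfkb2 had 84.4, 74.9 and 85.7 CPM in WT and 129, 138 and 109 CPM in Trpm2-/- libraries, without overlap (0.62, adjusted p = 0.0201). Relb (0.63, adjusted p = 0.0211), Nfkb1 (0.63, adjusted p = 0.0262) and Nfkbia (0.62, adjusted p = 0.0496) rose as well by edgeR's test. Nfkbiz had 60.9, 67.2 and 57.1 CPM in WT and 88.8, 114 and 112 CPM in Trpm2-/- libraries, also without overlap (0.77, adjusted p = 0.00947). Nfkbia and Nfkbiz encode regulators of NF-kappaB that are themselves its targets.

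The immediate early gene Egr1 had 120, 114 and 125 CPM in WT and 225, 204 and 186 CPM in Trpm2-/- libraries (0.78, adjusted p = 0.00591). Atf3, a stress-induced transcription factor, rose less (0.49, adjusted p = 0.0477). The secreted factors that rose were the cytokine Lif (41.1, 25.3 and 36.7 against 62.9, 94.8 and 69.4 CPM, log2 fold change 1.14, adjusted p = 0.00968) and Csf3, the granulocyte colony-stimulating factor. Csf3 had 0.863, 0.643 and 0.798 CPM in WT and 1.84, 3.21 and 2.8 CPM in Trpm2-/- libraries (1.75, adjusted p = 0.0203). Its receptor Csf3r, the neutrophil marker whose groups did not overlap, missed the adjusted threshold (1.81, adjusted p = 0.0549) and passed that of the methods (unadjusted p of 0.00707). Il17a and Ifng had no counts in any library. Calls over these and the other pathway genes listed here fell from 12 to 7, 4, 3 and 7 when WT replicate 1, 2 or 3 or Trpm2-/- replicate 1 was left out.

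**Figure D3:**
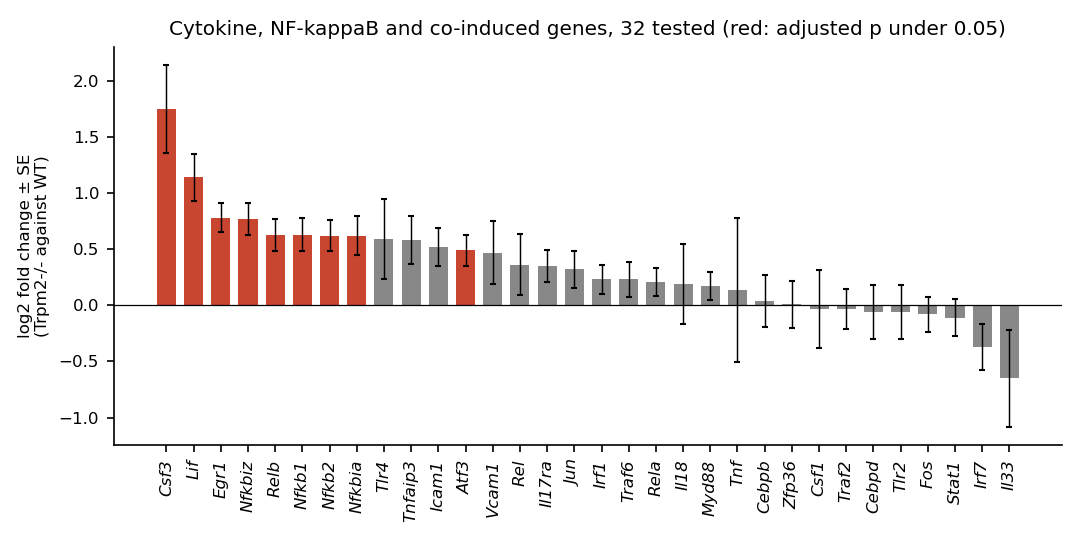
log2 fold change with its standard error (vertical axis, Trpm2-/- against WT) of the 32 tested genes of the list of cytokines, NF-kappaB and other factors, feedback inhibitors and adhesion molecules, sorted by size; red bars have an adjusted p under 0.05. The 9 red bars all lie above 0, from 0.49 for Atf3 to 1.75 for Csf3, and Tlr4, Tnfaip3 and Icam1 stand among them without passing.

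Cxcl12, which holds CXCR4-bearing cells in place and is made by stromal and endothelial cells, lies at 117168535 to 117181367 of chromosome 6. It had 990, 862 and 1003 counts in WT and 83, 138 and 493 in Trpm2-/- libraries. All Trpm2-/- values were below all WT values, and replicates 1 and 2 were far lower than replicate 4. The mean fell from 59.3 ± 3.42 to 15.1 ± 13.7 CPM (SD, n = 3), with a log2 fold change of -1.98 (standard error 0.505, 95% interval -3.11 to -0.84, Benjamini-Hochberg adjusted p = 0.0343, quasi-likelihood test of edgeR). Without Trpm2-/- replicate 4 the log2 fold change was -3.03 (adjusted p = 0.00101). Without any other single library it stayed between -2.03 and -1.56 but the call was lost (adjusted p from 0.057 to 0.0927).

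Neither receptor of CXCL12 passed the test. Ackr3, the scavenging receptor, had 885, 670 and 814 counts in WT and 675, 700 and 934 in Trpm2-/- libraries, a full overlap (0.00, 95% interval -0.36 to 0.35, adjusted p = 0.993). At 12.9 FPKM in both groups Ackr3 was the most abundant receptor. Cxcr4, the signalling receptor, had 71, 76 and 70 counts in WT and 169, 50 and 104 in Trpm2-/- libraries, with Trpm2-/- values on both sides of the WT values (0.58, 95% interval -0.25 to 1.41, adjusted p = 0.342). Its value rested on single libraries, being 0.13 without Trpm2-/- replicate 1 and 0.89 without replicate 2. Per 100 counts of Ackr3 there were 112, 129 and 123 of Cxcl12 in WT and 12.3, 19.7 and 52.8 in Trpm2-/- kidneys. This ratio too was chosen after the values were seen and was not tested.

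Markers of the cells that make Cxcl12 varied between the same libraries. The summed level of 6 endothelial markers was 102, 150 and 137 CPM in WT and 46.4, 44.1 and 169 CPM in Trpm2-/- libraries, so replicates 1 and 2 were below every WT library and replicate 4 above. Of the 6, Plvap, a component of fenestrated endothelium, fell (35, 73.4 and 58.9 against 8.14, 5.67 and 9.34 CPM, log2 fold change -2.85, adjusted p = 0.00126), and Pecam1, Cdh5, Kdr, Emcn and Tek did not pass. The 6 fibroblast and pericyte markers summed to 53.9 to 79.3 CPM in WT and 56.3 to 144 CPM in Trpm2-/- libraries. Only Acta2, smooth muscle actin, passed among them, and it rose (1.46, adjusted p = 0.0467). Podocyte markers, 3 genes of which none passed, were highest in Trpm2-/- replicate 4, where Podxl stood at 231 CPM against 60.3 to 96.1 CPM elsewhere. The part of these cell types in the level of Cxcl12 was not tested.

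**Figure D4:**
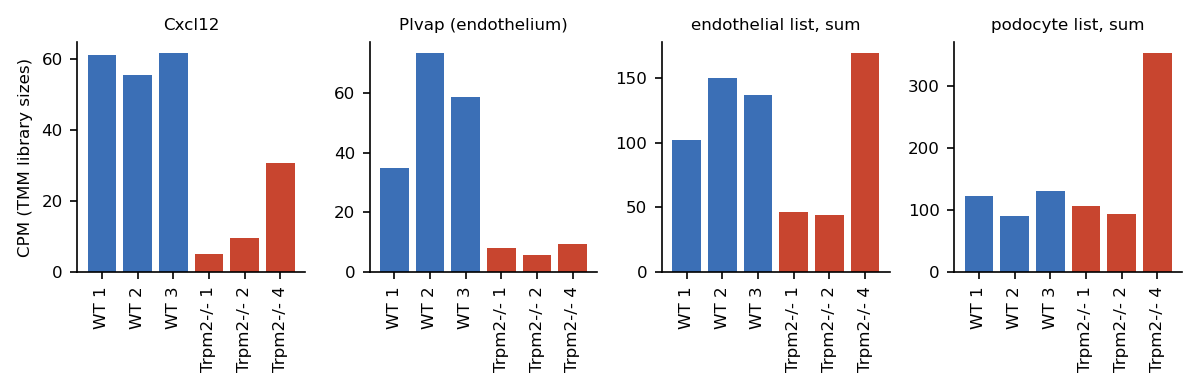
Bars give, for each library, the CPM of Cxcl12, of the endothelial gene Plvap and of the summed endothelial (6 genes) and podocyte (3 genes) marker lists, on axes that start at 0 (blue WT, red Trpm2-/-). Cxcl12 and Plvap are lower in every Trpm2-/- library, while the endothelial sum of Trpm2-/- replicate 4 (169 CPM) is above all WT libraries and its podocyte sum (353 CPM) is the highest.

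Both membrane-bound ligands were abundant and had narrow intervals around 0. Cxcl16, a transmembrane ligand and scavenger receptor, had 1320, 1497 and 1443 counts in WT and 1308, 1350 and 1492 in Trpm2-/- libraries (-0.01, 95% interval -0.29 to 0.28, adjusted p = 0.984). Windows amounting to 15.4% of its sequence lie over the antisense gene Zmynd15, and since strand use in counting was not given these reads cannot be assigned with certainty. Cx3cl1, fractalkine, had 1478, 1362 and 1417 counts in WT and 1408, 1035 and 1485 in Trpm2-/- libraries (-0.09, 95% interval -0.39 to 0.21, adjusted p = 0.708). Their ranges overlapped in both cases, and the intervals leave room for changes within those limits.

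Their receptors were rare. Cx3cr1, which marks resident macrophages, had 14, 17 and 32 counts in WT and 6, 7 and 17 in Trpm2-/- libraries. The groups overlapped at 17 counts, and the log2 fold change was -1.03 (95% interval -2.24 to 0.18, adjusted p = 0.249), with -0.62 without WT replicate 3 and -1.61 without Trpm2-/- replicate 4. Cxcr6 had 1, 1 and 5 counts in WT and 0, 0 and 3 in Trpm2-/- libraries and was not tested. Cxcl10, the interferon-induced ligand of CXCR3, had 513, 440 and 541 counts in WT and 521, 337 and 527 in Trpm2-/- libraries, which overlapped (-0.09, 95% interval -0.45 to 0.28, adjusted p = 0.781). Cxcl9 had 1 to 4 counts per library, and Cxcr3 had none but 3 in Trpm2-/- replicate 4. Cxcl11, outside the rule, had 39, 16 and 33 counts in WT and 11, 26 and 25 in Trpm2-/- libraries (-0.45, adjusted p = 0.586). Markers of T and NK cells, which can carry CXCR3, were low. Summed T cell markers were at 2.84 to 4.23 CPM in WT and 2.82 to 7.72 CPM in Trpm2-/- libraries, which overlapped. Summed NK cell markers were at 0.613 to 0.835 CPM in WT and, higher in every library, 0.956 to 1.35 CPM in Trpm2-/- kidneys. That order came from Eomes alone, at 0.37, 0.386 and 0.368 CPM in WT and 1.35, 0.683 and 1.06 CPM in Trpm2-/- libraries. Klrb1c and Prf1 had counts in WT replicate 2 only, and Nkg7 and Gzma overlapped between groups. Of the NK list Ncr1 was at 0 throughout, and Eomes, a transcription factor of NK and T cells and the only one tested, lay wholly above WT (1.44, adjusted p = 0.0797, unadjusted p of 0.0133).

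**Figure D5:**
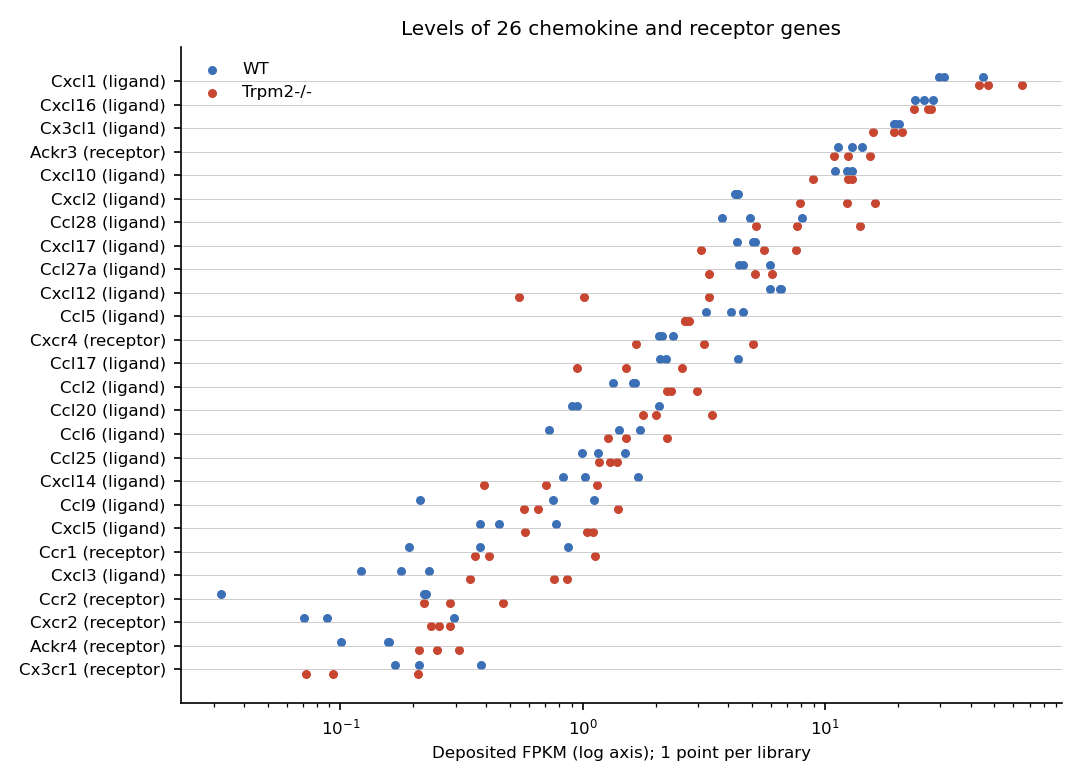
Deposited FPKM (horizontal log axis) of 26 tested members in each library, sorted by the mean over 6 libraries; blue points are WT and red points Trpm2-/- libraries. By mean, levels run from Cxcl1 at 29.7 to 65.1 FPKM down to Cx3cr1 at 0.0718 to 0.38 FPKM. The lowest single point is that of Ccr2 in WT replicate 1 (0.032 FPKM). The blue and red points part for Cxcl2, Cxcl3, Cxcl12, Ccl2, Ackr4 and Ccl5.

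Of the CC ligands that act on monocytes, Ccl2 came nearest to the threshold. It had 34, 27 and 35 counts in WT and 47, 44 and 61 in Trpm2-/- libraries, so the groups did not overlap. The mean was 1.99 ± 0.225 CPM in WT and 3.23 ± 0.499 CPM in Trpm2-/- kidneys (SD, n = 3), with a log2 fold change of 0.69 (95% interval 0.00 to 1.38, adjusted p = 0.175, edgeR). Its receptor Ccr2, a monocyte receptor, had 4, 27 and 28 counts in WT and 59, 32 and 27 in Trpm2-/- libraries, overlapping at the high WT values (1.01, adjusted p = 0.31, with 0.52 without WT replicate 1 and 0.64 without Trpm2-/- replicate 1). The other CCR2 ligands, Ccl7 with 2 to 7 counts and Ccl12 with 0 to 4 counts per library, were not tested.

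Ccl5, a ligand of CCR1 that T cells and tubular cells make, leaned the other way with 73, 55 and 82 counts in WT and 47, 44 and 46 in Trpm2-/- libraries. All Trpm2-/- values were below all WT values and lay within 3 counts of each other, but the difference missed the threshold (-0.58, 95% interval -1.20 to 0.05, adjusted p = 0.209). The CCR1 ligands Ccl6 (24 to 58 against 38 to 74 counts) and Ccl9 (12 to 60 against 29 to 79 counts) overlapped, as did Ccr1 (10 to 44 against 17 to 59 counts). Trpm2-/- replicate 1 was the highest library for Ccl6, Ccl9, Ccr1 and Ccr2, all of them known in monocytes and macrophages, and it also had the highest sum of 12 monocyte and macrophage markers (284 CPM, against 184 to 233 CPM in WT and 188 and 226 CPM in the other Trpm2-/- libraries). In that library Lyz2, a myeloid lysozyme, stood at 43.1 CPM against 5 to 16.4 CPM elsewhere, and Cd14 at 103 CPM against 33.4 to 70 CPM. Much of the higher sum came from Cd14 and Lyz2, and the markers did not move together. Csf1r was lowest in the same library, at 11.1 CPM against 14.4 to 27.2 CPM. Of the 11 monocyte and macrophage markers tested, none was called higher. C1qa (-2.03, adjusted p = 0.0401) and C1qc (-1.88, adjusted p = 0.0421), complement genes of resident macrophages, were called lower. In both, WT replicate 1 (4.93 and 2.9 CPM) lay within the Trpm2-/- range (1.98 to 5.63 and 1.43 to 3.18 CPM). C1qb overlapped too (-1.16, adjusted p = 0.11). Lyz2 lay wholly above WT, at 43.1, 12.6 and 16.4 against 5 to 12.1 CPM (1.35, adjusted p = 0.0911), as did the untested Ly6c2. By the threshold of the methods 3 markers were lower and Lyz2 alone was higher. Cd14 (0.82, adjusted p = 0.0718) and Cd68 (-0.06, adjusted p = 0.841) overlapped. Ccl3 and Ccl4 had at most 6 counts in a library.

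Ccl20, the ligand of CCR6, had 54, 24 and 24 counts in WT and 53, 42 and 88 in Trpm2-/- libraries, with WT replicate 1 inside the Trpm2-/- range (0.87, 95% interval -0.08 to 1.81, adjusted p = 0.213). It was 1.35 without that WT library and 0.54 without Trpm2-/- replicate 4. Ccr6 itself had 2 counts, both in Trpm2-/- replicate 2. Ccl17, a ligand of CCR4, had 21, 40 and 20 counts in WT and 9, 13 and 24 in Trpm2-/- libraries (-0.79, adjusted p = 0.335), and -0.37 without WT replicate 2, -0.50 without Trpm2-/- replicate 1 and -1.23 without replicate 4. Its relative Ccl22 had 8 counts in WT replicate 2, 2 and 3 in Trpm2-/- replicates 2 and 4 and none elsewhere, and Ccr4 had 2 and 7 in Trpm2-/- replicates 1 and 2 and none elsewhere.

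Several epithelial ligands were among the more abundant members and varied within groups. Ccl28, a mucosal ligand of CCR10, had 440, 694 and 340 counts in WT and 688, 1133 and 454 in Trpm2-/- libraries. Replicate 2 was the highest library of each group, and the ranges overlapped (0.67, 95% interval -0.15 to 1.49, adjusted p = 0.264). The log2 fold change was 1.03 without WT replicate 2 and 0.19 without Trpm2-/- replicate 2. Ccl27a, also a ligand of CCR10, had 194, 195 and 264 counts in WT and 146, 205 and 261 in Trpm2-/- libraries (-0.06, 95% interval -0.60 to 0.49, adjusted p = 0.912). Of the 75-base windows of Ccl27a, 33.3% also occur in near-identical copies such as Ccl27b, so its counts are uncertain. Ccr10 had 5, 8 and 3 counts in WT and 8, 0 and 3 in Trpm2-/- libraries.

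Cxcl17, a mucosal CXC ligand with no settled receptor, had 61, 68 and 73 counts in WT and 79, 39 and 105 in Trpm2-/- libraries, which lay on both sides of WT (0.16, 95% interval -0.61 to 0.92, adjusted p = 0.808). Cxcl14, also without a settled receptor, had 28, 55 and 35 counts in WT and 24, 12 and 38 in Trpm2-/- libraries (-0.66, adjusted p = 0.389), and -0.32 without WT replicate 2, -0.36 without Trpm2-/- replicate 2 and -1.08 without replicate 4. Ccl25, which draws T cells to gut and thymus through CCR9, had 131 to 208 counts in WT and 161 to 187 in Trpm2-/- libraries (0.07, 95% interval -0.41 to 0.55, adjusted p = 0.872), and Ccr9 had 0 to 8 counts per library. For these epithelial genes no difference was detectable beyond the spread within groups.

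Of the other atypical receptors, which clear chemokines, Ackr4 had 10, 15 and 16 counts in WT and 25, 19 and 30 in Trpm2-/- libraries. The groups did not overlap, but the test was not passed (0.87, standard error 0.4, 95% interval -0.03 to 1.77, adjusted p = 0.188), and 6.30% of its windows lie over the antisense gene Acad11. Ackr2, which takes up inflammatory CC ligands, had 3, 0 and 5 counts in WT and 5, 14 and 11 in Trpm2-/- libraries, touching at 5, and had too few counts for the test. Ackr1 had 1 count, in Trpm2-/- replicate 1.

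Levels were set by a few genes. The 10 most abundant members (Cxcl1, Cxcl16, Cx3cl1, Ackr3, Cxcl10, Cxcl2, Ccl28, Cxcl17, Ccl27a and Cxcl12) made up 86.5% of the summed FPKM of all members in WT and 87.4% in Trpm2-/- kidneys. In WT kidneys Cxcl1 (35.3 ± 8.56 FPKM) lay above Cxcl16 (25.7 ± 2.12 FPKM) in each library, Cx3cl1 (19.7 ± 0.56 FPKM) lay below both, and Ackr3 (12.9 ± 1.53 FPKM) and Cxcl10 (12.1 ± 0.959 FPKM) overlapped (SD, n = 3). In Trpm2-/- kidneys Cxcl2 (12.1 ± 4.09 FPKM) overlapped with Ackr3 (12.9 ± 2.31 FPKM) and Cxcl10 (11.5 ± 2.18 FPKM), whereas in WT kidneys it was below both, at 4.31 ± 0.0772 FPKM. Cxcl12, in WT at 6.35 ± 0.362 FPKM and above Cxcl2, was at 1.63 ± 1.49 FPKM in Trpm2-/- kidneys and below it in every library.

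The other 39 rows were not tested, 13 because they had no counts in any library and 26 because their counts were low, with at most 38 counts over the 6 libraries where the tested members had at least 64. Without counts on assembled chromosomes were Xcl1, Ccl1, Ccl19, Ccl21a, Ccl21b, Ccl26, Cxcl15 and Ccr8, along with 5 scaffold rows, which include both rows of Ccl21c. Ccl21a on a scaffold had 5 counts, all in WT replicate 3, and a scaffold copy of Ccl27a had 1 in each of WT replicate 3 and Trpm2-/- replicate 4. Of the 75-base windows of Ccl21b, Ccl21a and Ccl19 on chromosome 4, 100%, 61.3% and 45.3% also occur in other genes, so their zeros are uncertain and reads may have been placed elsewhere or dropped. Cxcl13 had 0, 3 and 2 counts in WT and 6, 1 and 8 in Trpm2-/- libraries, its receptor Cxcr5 had 2 and 5 in Trpm2-/- replicates 1 and 4 and none elsewhere, and Ccr7 had 6, 2 and 1 in WT and none in Trpm2-/- libraries. Xcr1, a dendritic cell receptor, had 0 to 9 counts with both groups spread over that range. The eotaxins Ccl11 and Ccl24 had at most 2 counts in a library, their receptor Ccr3 at most 3, and Ccl27b had 1 count in all. Ccl8 had 18 counts in WT replicate 1 and none in the other libraries, so that value belongs to 1 library and not to a genotype.

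Downstream of the receptors, 35 of 40 signal transduction genes were tested, with 1 higher, 1 lower, 24 above 0 and a median log2 fold change of 0.16. Grk5, a kinase that desensitizes receptors, had 12.5, 8.29 and 8.22 CPM in WT and 20, 18 and 17.4 CPM in Trpm2-/- libraries, without overlap (0.93, adjusted p = 0.0212). Gnai1, an inhibitory G protein subunit, had 66, 71.1 and 79.1 CPM in WT and 57.4, 44.2 and 47.9 CPM in Trpm2-/- libraries, also without overlap, and fell (-0.53, adjusted p = 0.0401). Neither Jak2, a kinase (35.9, 29.4 and 29.1 against 59.2, 42.9 and 40.6 CPM, log2 fold change 0.60, adjusted p = 0.0533), nor Pik3r5, a subunit of PI3K gamma (1.54, 1.35 and 0.982 against 4.22, 2.25 and 2.37 CPM, 1.19, adjusted p = 0.0797), passed, though neither overlapped between groups. Over all genes tested, 4.74% were higher and 7.28% lower.

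A last list held 19 relatives of chemokines and genes that modify them, of which 16 were tested. Rarres2, the precursor of the leukocyte attractant chemerin, fell (31.1, 38.7 and 30.4 against 8.57, 4.37 and 10.5 CPM, log2 fold change -2.09, adjusted p = 0.00299) and was the only call of that list. Ppbp, a platelet CXC ligand whose gene lies between Cxcl5 and Cxcl3, had 6, 8 and 0 counts in WT and 19, 16 and 21 in Trpm2-/- libraries, without overlap (1.99, adjusted p = 0.105). Tnfaip6, which binds chemokines, had 0.247, 0.386 and 0.0613 CPM in WT and 0.979, 0.819 and 0.996 CPM in Trpm2-/- libraries, without overlap, and missed the threshold (1.99, adjusted p = 0.0588). Cd74, the receptor of MIF, had 37.5, 56.5 and 68.8 CPM in WT and 20.1, 14.3 and 44.1 CPM in Trpm2-/- libraries, which overlapped (-1.05, adjusted p = 0.0994).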

How the data were processed

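RNA-sequencing of kidney tissue gave 6 libraries, 3 WT and 3 Trpm2-/-. Per the methods, Trizol was used to isolate RNA and NEBNext Ultra II to prepare libraries, which Novogene sequenced on a HiSeq instrument. The authors deposited raw read counts for 54532 genes and FPKM values, which divide counts by gene length and library total. The submitters' processing notes name HISAT2, StringTie and mm9, without versions, yet gene positions equal those of GRCm38 for 53499 of 54409 genes matched by identifier to GENCODE mouse release 21, and for all 59 members matched, so GRCm38 is used here. Strandedness and filters are not given in the sources used here. The labels and the methods differ on the age of the mice.

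The counts went into edgeR 4.0.16 in R 4.3.3. filterByExpr with default settings kept 15816 genes. TMM factors, a model with genotype only and the two-sided quasi-likelihood test were used, with Benjamini-Hochberg adjustment over all genes tested (common dispersion 0.0445). Genes were called at an adjusted p under 0.05. The standard error is the absolute log2 fold change over the square root of F, and the interval at 95% uses the residual and prior degrees of freedom. CPM values use TMM library sizes. Levels of different genes were compared only by FPKM. The chi-square between libraries of a group, divided by its degrees of freedom, was 13.5 to 18.7 in WT and 32.1 to 36.7 in Trpm2-/- mice, so none were copies.

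The members, pathway lists and marker lists were chosen with earlier results of these data known. All members but 1, which is not reported here, are named. Values per library are given for called members, the 10 of highest mean FPKM and their receptors, for up to 4 genes of each pathway list with the smallest p, and for some markers of the highest CPM in a list or that define a cell type. Promoters are RefSeq sequences, 250 bases before the start for 45 members by symbol. Alternatives were DESeq2 1.42.0, limma 3.58.1 on log2(FPKM + 1), log2(FPKM + 0.1) and voom values, other factors and filters, glmTreat against a fold of 1.5, a block for the replicate number, and fits with 1 library left out.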

Additional observations from a re-analysis of the deposited data

How the results depend on the processing

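Cxcl2 was called in every alternative. Against 2 members higher and 1 lower, the fit without a filter on low counts called 4 and 2, adding Cxcl1 (0.53, adjusted p = 0.016), Ccl28 (0.66, adjusted p = 0.00189) and, from 18 counts in 1 library, Ccl8 (adjusted p = 0.0206). limma on log2(FPKM + 1), with or without a mean FPKM of at least 1, called 1 member higher, since Cxcl3 dropped out, and glmTreat 1 higher and 0 lower. Leaving out 1 library gave 1 to 2 higher and 0 to 1 lower members, 3 to 5 past the threshold of the methods (3 in the reported fit), 3 to 14 pathway genes (12) and 9 to 16 marker genes (17). Past the threshold of the methods were 9 members without a filter and 5 with the replicate block. Pathway calls were 1 with glmTreat, and marker calls were 34 without a filter, 11 with limma on log2(FPKM + 1), also with the FPKM minimum, and 6 with glmTreat. The cause was not tested.

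Numbers 1 and 2 occur in both genotypes. The correlation of deviations was 0.0641 and -0.012 for these like numbers and -0.248 to 0.217 for unlike numbers. With 3 libraries a group these values do not settle whether the mice were paired. With a block for the replicate number, WT replicate 3 and Trpm2-/- replicate 4 each stand alone in a block. The genotype difference of that fit therefore rests on replicates 1 and 2 only. The replicate block left 2 higher and 1 lower members, 7 pathway and 15 marker genes, with Cxcl3 not called (1.45, adjusted p = 0.195) and Ccl28 called (0.72, adjusted p = 0.0484).

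Of 483 values of 26 members under 19 settings, 17 changed sign, none of them of a called gene. Cxcl16 was 0.04 with upper quartile factors and 0.01 without the mitochondrial genome and in the 3 FPKM fits, and Cxcl17 was -0.16 with the block. Leaving out 1 library gave -0.07 to 0.06 for Cxcl16, -0.16 to 0.01 for Cx3cl1, -0.16 to 0.06 for Cxcl10, -0.15 to 0.43 for Cxcl17, -0.24 to 0.16 for Ccl27a, -0.06 to 0.24 for Ccl25, -0.19 to 0.83 for Ccl9 and -0.33 to 1.13 for Ccr1. With 3 libraries a group, members with 38 or fewer counts in all were not tested, and Cxcl3, Ccr2 and other scarce members have wide intervals.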

Other observations

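Markers of other cell types that carry or make chemokines were measured in the same libraries. Of 4 collecting duct genes, Aqp2 (-1.02, adjusted p = 0.00602) and Aqp3 (-0.47, adjusted p = 0.0495), water channels, fell by edgeR's test, and of 4 genes of the thick ascending limb and distal tubule, Umod, which encodes uromodulin, fell (-1.97, adjusted p = 0.0326). Summed dendritic cell markers were at 7.03 to 12.9 CPM in WT and 8.88 to 12.9 CPM in Trpm2-/- libraries and B cell markers at 0.9 to 2.9 and 1.78 to 2.18 CPM, with no gene of these lists called. WT replicate 1 held the most urothelial marker RNA, 57.4 CPM against 8.22 and 15.1 CPM in the other WT and 6.73 to 9.59 CPM in Trpm2-/- libraries. Of 4 urothelial genes tested, Upk3a fell (13.5, 0.771 and 3.31 against 0, 0.273 and 0.125 CPM, -5.43, adjusted p = 0.0175). Upk1a, Upk1b and Upk2 also lay wholly below WT without being called, while Upk3b and Krt5 overlapped. WT replicate 1 was also the library in which all 18 counts of Ccl8 and the highest WT count of Ccl20, 54, were found.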
